A study of Zea mays with 33 samples.

Results

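Seedling roots of the maize inbred line B73 were 1 of 11 tissues profiled by RNA sequencing, and 79 of the 44146 gene models with a Zm00001d number in the files were restricted to them. Levels are given as CPM, the reads on a gene per 1000000 reads on all genes of the library, with no correction for the length of the gene. A gene was counted as restricted where its lowest level in the 3 root libraries was at least 20 CPM and at least 8 times its highest level in any of the other 30 libraries. Zm00001d054057 and Zm00001d054060 were set aside beforehand, and neither of the 2 met the limits. The genes were thus chosen by their CPM in these same 33 libraries, and every difference between roots and the other tissues is given as a description, without a test.

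All plants were wild type B73, no treatment was compared, and each tissue had 3 libraries. The titles of all samples carry the code WW, so the condition it stands for was shared by every library. Roots (DAS4_R) and the hypocotyl (DAS4_HY) came from seedlings 4 days after sowing that had grown on perlite without direct light, and 3 plants were pooled for each of their libraries. The root samples reached from the place where the root emerges down to its tip, and the hypocotyl samples are the stem piece that starts at the same place. The remaining tissues were the immature part (V2_LF-I) and the expanded part (V2_LF) of the leaf at the V2 stage, leaf (PS_LF), internode (PS_IN1), immature ear (PS_EAR), silk (PS_SILK) and tassel (PS_TAS) at pollen shed, all from single greenhouse plants (for PS_LF, PS_IN1, PS_EAR and PS_TAS, replicate 1 was harvested 3 days before replicates 2 and 3), and seed at 12 days (DAP12_S) and 35 days (DAP35_S) after pollination from field ears. The methods text gives a different age for the younger seed, and the name in the labels is kept. Growth medium, light and age are shared by roots and hypocotyls and differ from those of the other tissues, so their part in a difference cannot be told apart from that of the organ.

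A root anchors the seedling and takes up water and minerals. Behind its cap and meristem lie a zone of elongating cells and a zone of root hairs, and a whole-root sample mixes all of these. In plants, genes read chiefly in roots are known to include many for transporters, cell wall enzymes and secondary metabolism. The reference table used here did not hold any of the 79 IDs, so the genes are named by ID, their products and chromosomal positions are not given, and the label of the tissue could not be checked against marker genes. In a bulk sample, fewer cells of a type and less RNA per cell cannot be told apart.

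The libraries held between 15.8 M and 42.9 M reads on genes (M, 1000000). In the root libraries the 79 genes took 1.06%, 1.21% and 1.30% of these reads in replicates 1, 2 and 3, which is 1.19% ± 0.12 (SD, n = 3). Their share was 0.0206% ± 0.0033 in DAS4_HY (SD, n = 3). Their summed level was 11890 ± 1207 CPM in roots (SD, n = 3) and between 17.0 and 87.4 CPM in the libraries of the other 9 tissues. V2_LF was the tissue with the lowest sum, at 17.5 ± 0.5 CPM (SD, n = 3).

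By the same limits, applied to each tissue in turn, 673 genes were restricted to PS_TAS, 124 to DAP35_S and 37 to DAP12_S. PS_IN1 and PS_SILK had 21 each, PS_EAR 10, PS_LF 8, V2_LF-I 6, V2_LF 4 and DAS4_HY 1. Only tassel and the older seed thus had more such genes than roots, and in both of them these genes took a far larger share of the reads. The genes restricted to tassel took 39.8% ± 5.0 of the tassel reads and those restricted to the older seed 37.9% ± 2.5 (SD, n = 3 each). The fewer genes restricted to PS_SILK took 2.71% ± 0.07 of its reads and those restricted to DAP12_S 1.26% ± 0.37, beside 1.19% ± 0.12 in roots (SD, n = 3 each). When the 3 hypocotyl libraries were left out of the comparison, the number of genes restricted to roots was 142, of which 63 were added. Leaving out any other non-root tissue gave between 79 and 85.

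**Figure D1:**
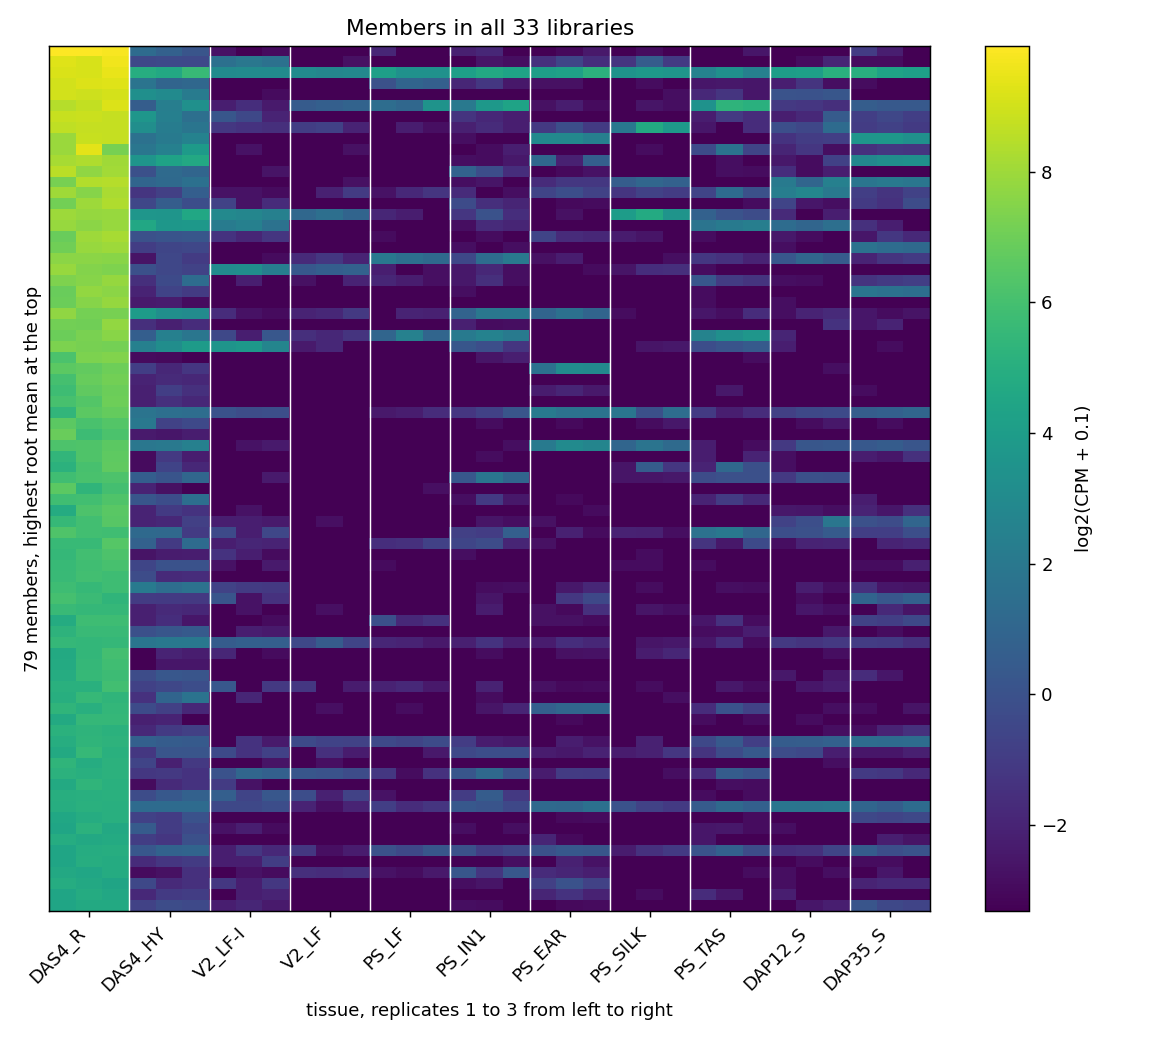
Level of the 79 root-restricted genes (rows, ordered by their mean in roots) in each of the 33 libraries (columns, 3 per tissue), as log2(CPM + 0.1). The 3 root libraries at the left are uniformly high, the hypocotyl libraries beside them hold a low level of most rows, and each of the other tissues holds a level of a few rows only.

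Within roots, the mean level of the 79 genes lay between 24.8 and 937 CPM, with a median of 67.4 CPM. 31 of them had a mean of at least 100 CPM and 5 of at least 500 CPM. Zm00001d041173 drew the most reads, with 970.3, 947 and 894 CPM in the root libraries and at most 2.36 CPM elsewhere, in a hypocotyl library. The study's gene ontology terms for this gene include hydrolase activity on glycosyl bonds, the activity of enzymes that cut sugar chains.

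Zm00001d026163 followed with 626, 557 and 806 CPM in roots, and its highest other library was V2_LF-I replicate 2 at 3.75 CPM. Zm00001d002678 had 569, 563 and 721 CPM in roots and kept a level in every other tissue, the highest being 48.6 CPM in DAS4_HY replicate 3. Zm00001d036066 had 524, 592 and 617 CPM in roots against at most 3.27 CPM elsewhere. All 4 genes were thus high in each root library, and they differed in how much of their level was left outside roots.

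The next genes by reads differed more in the tissue where a remainder was found. Zm00001d007700 had 511, 486 and 532 CPM in roots and at most 9.73 CPM elsewhere, in DAS4_HY. Zm00001d029546 had 355, 425 and 593 CPM in roots, and 10.7, 38.6 and 34.1 CPM in PS_TAS. Zm00001d026177 had 456, 471 and 440.4 CPM in roots and at most 12.4 CPM elsewhere, in DAS4_HY. The tassel remainder of Zm00001d029546 set it apart from both of the others, whose highest library outside roots was a hypocotyl.

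Zm00001d017485 had 404, 436 and 427 CPM in roots, and 3.91, 26.6 and 14.0 CPM in PS_SILK. Zm00001d032822 had 239.8, 454 and 430 CPM in roots, and 12.1, 12.8 and 9.79 CPM in DAP35_S. For Zm00001d034382 the root libraries had 244, 658 and 149 CPM, so that replicate 2 alone set its mean of 350.3 ± 270.2 CPM (SD, n = 3).

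The gap between roots and the other tissues was far wider than the limit for many of the genes. The lowest root library was a median of 27.5 times the highest other library, at least 50 times in 29 genes and at least 100 times in 18. Zm00001d004729 had the largest such ratio, with 122, 181 and 223 CPM in roots and at most 0.101 CPM elsewhere. That highest other value is 4 reads in DAS4_HY replicate 2, and the ratio of 1216 has an exact 95% Poisson interval of 475 to 4464 for the counting error of those reads. The gene had 0 reads in 25 of the 30 other libraries.

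The other large ratios rest on few reads too. Zm00001d023280 had 71.2, 160 and 168 CPM in roots and 3 reads in its highest other library, PS_IN1 replicate 3, a ratio of 605 with an interval of 207 to 2934. Zm00001d028887 had 119, 54.9 and 72.0 CPM in roots and 3 reads in DAS4_HY replicate 3, a ratio of 509 with an interval of 174 to 2470. Zm00001d017508 had 138, 131 and 216 CPM in roots and 7 reads in DAP12_S replicate 3, a ratio of 468 with an interval of 227 to 1163. The intervals of all 4 genes overlap, so their order is not resolved at this depth. The ratio of Zm00001d041173, at 379 with an interval of 304 to 481, has the least counting error among the 8 largest, since it rests on 77 reads. Its hypocotyl libraries had 2.36, 1.61 and 1.04 CPM, and the interval does not cover this spread between replicates. The remaining genes of the 8 were Zm00001d004725 (ratio 367), Zm00001d004728 (ratio 323) and Zm00001d028888 (ratio 269).

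At the other end, the genes just inside the fold limit were Zm00001d003707 at 8.003 times, Zm00001d008173 at 8.24 times, Zm00001d046928 at 8.35 times and Zm00001d008299 at 9.08 times their highest other library. Just outside it lay Zm00001d047117 at 7.49 times, Zm00001d040501 at 7.48 times, Zm00001d001943 at 7.29 times and Zm00001d053982 at 6.92 times. Zm00001d047117 had at least 544 CPM in every root library and was left out because of 72.6 CPM in PS_IN1 replicate 3.

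Just inside the level limit were Zm00001d032823, Zm00001d040196, Zm00001d023392 and Zm00001d027855, whose lowest root libraries had 21.3, 21.7, 22.0 and 22.1 CPM. Just outside it were Zm00001d026102, Zm00001d012021, Zm00001d045022 and Zm00001d018619, with 19.4, 19.4, 19.4 and 18.8 CPM. The limits therefore cut through a continuous range. The study's terms for Zm00001d027855 include DNA-binding transcription factor activity and protein dimerization, and this gene had a ratio of 51.3 to its highest other library.

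The 79 genes varied more among the 3 root libraries than other genes did. The highest root library was a median of 1.45 times the lowest, against a median of 1.16 times in the 9794 other features with at least 20 CPM in every root library. A range of at least 2 times was seen in 16 of the 79 genes (20.3%) and in 167 of the 9794 other features (1.71%). Much of this spread had the same shape. Replicate 1 was the lowest root library for 49 of the 79 genes (62.0%), against 43.7% of the other features.

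Replicates 2 and 3 both exceeded 1.5 times replicate 1 in 18 of the 79 genes (22.8%) and in 107 of the other features (1.09%). Zm00001d044660 had 28.2, 75.4 and 92.0 CPM in replicates 1, 2 and 3, Zm00001d045420 had 42.3, 95.1 and 111 CPM, and Zm00001d029275 had 36.0, 67.0 and 104 CPM. Zm00001d038382 had 117, 254 and 288 CPM, and Zm00001d004721 had 138, 251 and 328 CPM. In each of these 5 genes the mean of replicates 2 and 3 was between 2.10 and 2.96 times replicate 1. The opposite shape, replicate 1 above 1.5 times both others, was seen in 2 of the 79 genes, Zm00001d028887 and its neighbour by number Zm00001d028888, which had 94.2, 41.2 and 62.0 CPM.

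7 of the 79 genes stayed within 1.1 times across the root libraries, among them Zm00001d041173. The 3 libraries are pools of different plants harvested on the same day, and the share of each root zone in a library is not given. Its part in the spread was not tested. Leaving out replicate 1 raised the number of root-restricted genes to 118, against 85 without replicate 2 and 87 without replicate 3.

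**Figure D2:**
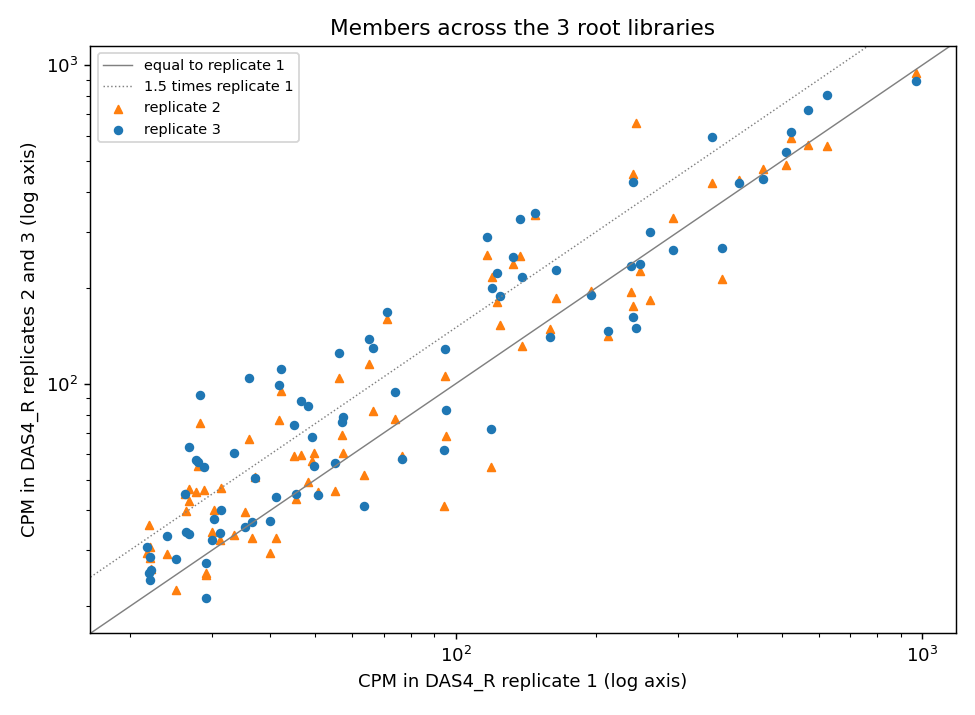
Level of the 79 genes in root replicates 2 (triangles) and 3 (circles) against replicate 1, in CPM on log axes. Points above the dotted line exceed 1.5 times replicate 1, and 18 genes have both of their points there.

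Outside roots, the hypocotyl was the tissue with the highest summed level of the 79 genes, at 206 ± 32.6 CPM (SD, n = 3), and DAP35_S came next. The hypocotyl had the highest mean outside roots for 46 of the 79 genes, followed by DAP35_S for 8, V2_LF-I and PS_EAR for 5 each, and PS_TAS and DAP12_S for 4 each. The matching shares over all genes are not given, so these counts have no baseline. All 79 genes had at least 1 read in hypocotyls and 74 had reads in all 3 hypocotyl libraries. By contrast 52 of the 79 genes had 0 reads over the 3 libraries of V2_LF, 51 over those of PS_LF and 43 over those of PS_SILK. The hypocotyl libraries held 27.8 M to 39.7 M reads on genes, and those of V2_LF, PS_LF and PS_SILK 19.9 M to 34.9 M. Counts of genes without a read depend on depth too, and their share over all genes is not given. As a share of its root mean, the hypocotyl mean of a gene was 1.15% in the median and ranged from 0.0140% to 8.38%.

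The limits set the same ceiling for all 30 libraries outside roots and so do not separate the hypocotyl from the other 9 tissues. The level of each gene in DAS4_HY was therefore tested against the mean of its log levels in those 9 tissues with edgeR's quasi-likelihood test, with p-values adjusted by the method of Benjamini and Hochberg over the 28997 genes tested. All 79 genes passed the filter on low counts, 24 of them only through their root libraries. 74 of the 79 were higher in DAS4_HY at an adjusted p under 0.05, where 38.6% of all genes tested were. When the 3 root libraries were left out of the fit, 55 of the 79 passed the filter and 52 of these were called higher, where 38.1% of the genes then tested were. A gene can then pass the filter through the hypocotyl libraries alone. Zm00001d007705, for example, had 0.857, 1.06 and 1.22 CPM in DAS4_HY and at most 0.114 CPM in the other non-root libraries. That share is therefore partly set by the filter, and the same can hold for the tissues of the comparisons below. DESeq2 called 69 of the 79 higher, where it called 10960 of all 28997 genes tested.

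None of the 79 was called lower in DAS4_HY by edgeR or DESeq2, and none had an unadjusted p under 0.05 in that direction. This count of 0 carries little, since the mean of log levels has no lower bound where a tissue has 0 reads, and 68 of the 79 genes had 0 reads in some non-root tissue. Of all 5819 genes tested with such a tissue, 0.361% were called lower and 46.3% higher, against 65 of the 68 called higher. Among the 11 genes with a read in each of the 10 non-root tissues, 9 were higher and none was lower, where 36.7% and 29.8% of all such genes were.

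Pooling the reads, the 79 genes were a median of 7.06 times as high in hypocotyls as in the 27 libraries of the other 9 tissues, with a quartile range of 2.15 to 18.6 times. Over all genes tested the median of this ratio was 1.06. After scaling by TMM (trimmed mean of M values), which the tests use, the medians were 5.40 for the 79 genes and 0.812 for all genes tested. The 27 libraries had 0 reads for 5 of the 74 genes, and a floor of 3 reads over the 27 libraries was used for the ratio. In 4 of the 74 genes the pooled ratio before scaling was under 1 although the test called them higher. After TMM it was under 1 in further called genes, among them Zm00001d032821 (0.903) and Zm00001d024178 (0.873). The test is on the average of log levels, in which a high level in a few tissues weighs less than in the pooled reads. For 23 of the 79 genes every hypocotyl library was above every one of the 27 others, which held for 4.59% of all genes tested.

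The genes with the largest fitted changes in DAS4_HY were low but well counted there. Zm00001d007700 had 9.73, 8.11 and 4.39 CPM in DAS4_HY, against 0 to 1.08 CPM with a median of 0 CPM in the 27 libraries, which is 56.8 times the pooled level (adjusted p = 7.7e-14 by edgeR). Zm00001d051773 had 11.7, 19.5 and 25.7 CPM in DAS4_HY, against 0 to 9.73 CPM with a median of 0 CPM, a pooled ratio of 18.7 (adjusted p = 3.2e-12). Zm00001d040483 had 0.275, 1.81 and 3.24 CPM in DAS4_HY, against 0 to 0.171 CPM, a pooled ratio of 237 that rests on 5 reads in the 27 libraries (adjusted p = 1.5e-07). It passed the filter on low counts only through its root libraries. In all 3 genes the hypocotyl libraries lay above every one of the others.

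Zm00001d003707 had 24.2, 12.8 and 13.4 CPM in DAS4_HY, against 0 to 5.29 CPM with a median of 0.0419 CPM, a pooled ratio of 14.4 (adjusted p = 5.0e-14). Zm00001d034382 had 3.52, 5.36 and 14.7 CPM in DAS4_HY, against 0 to 3.15 CPM, a pooled ratio of 32.7 (adjusted p = 2.6e-11). Here too the groups did not overlap. The 5 genes that were not called were Zm00001d019497, Zm00001d023280, Zm00001d035028, Zm00001d037008 and Zm00001d051473, of which Zm00001d023280 had only 2 reads in all of the hypocotyl libraries.

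As a share of the root level, the hypocotyl was highest for Zm00001d038363, with 45.3, 43.4 and 45.02 CPM in roots and 3.49, 3.83 and 3.88 CPM in DAS4_HY (8.38% of the root mean). Zm00001d003707 followed at 7.57%, Zm00001d046928 at 7.29%, Zm00001d008173 at 6.72% and Zm00001d008299 at 6.60%. 11 of the 79 genes reached 5% of their root mean in hypocotyls, whereas 3 stayed under 0.1%. The library that was highest among the 3 hypocotyls also varied between genes, being replicate 1 for 24 genes, replicate 2 for 23 and replicate 3 for 32. Reads that came from root tissue in the hypocotyl samples would enter these values. How much did so was not tested.

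**Figure D3:**
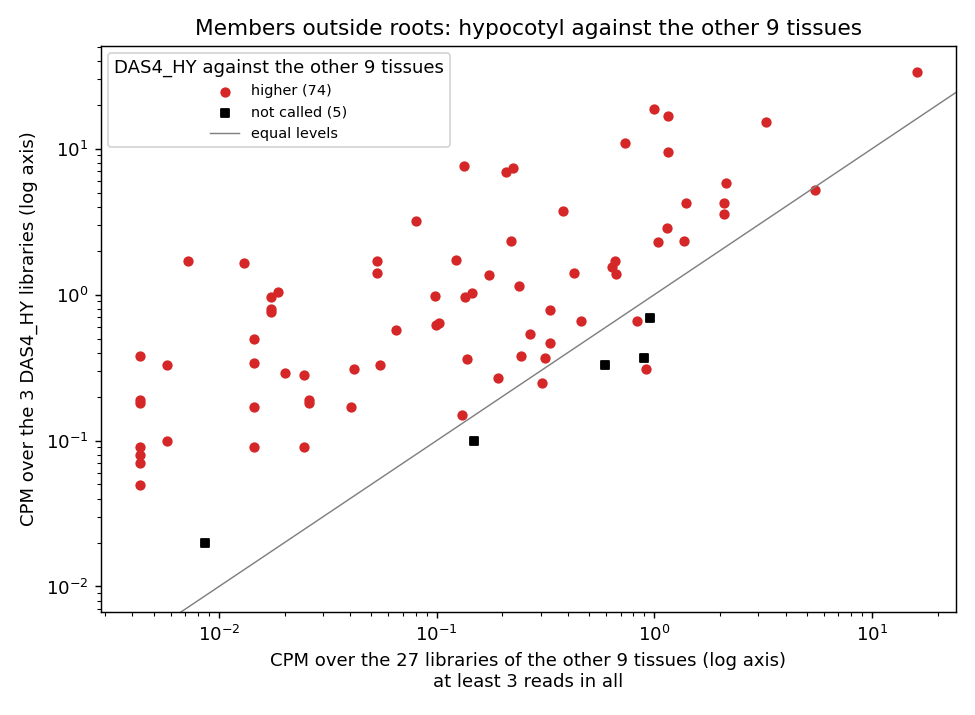
Pooled level of each of the 79 genes in the 3 hypocotyl libraries (y axis) against the 27 libraries of the other 9 non-root tissues (x axis), in CPM on log axes, with genes under 3 reads in the 27 libraries drawn at that floor. The 74 genes called higher in DAS4_HY are circles and the 5 not called are squares. On these levels, which are not scaled by TMM, 70 of the circles lie above the line of equal levels.

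In the internode at pollen shed, 17 of the 79 genes were higher than in the mean of the other 9 non-root tissues and 4 were lower, where 32.6% and 24.4% of all genes tested were higher and lower. In 13 of the 17 the pooled level before scaling was above that of the other 9 tissues. These counts cannot be read against the shares of all genes. In PS_IN1, 23 of the 79 genes had 0 reads, and the fit gave no usable error for them. None of the 23 was called. Of all 2093 genes tested with 0 reads in PS_IN1, 4.92% were called lower and none higher. Among the 11 genes with a read in each of the 10 non-root tissues, 4 were higher and 4 lower, where 35.4% and 30.1% of all such genes were. Without the root libraries in the fit, 15 of the 55 genes tested were higher and 4 lower, where 32.3% and 24.8% of the genes then tested were.

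The genes with the largest changes were low in level. Zm00001d031510 had 1.13, 3.38 and 1.88 CPM in PS_IN1, against 0 to 1.94 CPM with a median of 0 CPM in the 27 other non-root libraries (pooled ratio 5.96, adjusted p = 4.5e-10 by edgeR). Zm00001d037008 had 1.05, 0.314 and 1.098 CPM in PS_IN1, against 0 to 0.252 CPM (pooled ratio 11.2, adjusted p = 1.0e-08), and its libraries did not overlap with the others. It passed the filter on low counts only through its root libraries. Zm00001d018195, Zm00001d030199 and Zm00001d018751 were also higher, with pooled ratios of 2.40, 3.30 and 2.40.

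The 4 genes that were lower in PS_IN1 were Zm00001d019497, Zm00001d017485, Zm00001d040684 and Zm00001d038363. Zm00001d017485 had 0.126, 0.209 and 0.118 CPM in PS_IN1, against 0 to 26.6 CPM with a median of 0.409 CPM elsewhere outside roots, a range set by its silk libraries. DESeq2 called 17 higher and 12 lower in this comparison, where it called 8947 and 9372 of all 28997 genes tested. Without PS_IN1 replicate 3 edgeR called 15 higher and 2 lower, where it called 8571 and 6429 of the 29497 genes then tested.

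In seed, 21 of the 79 genes were higher in DAP35_S than in DAP12_S and 5 were lower, where 21.5% and 22.4% of all genes tested were. Without the root libraries in the fit, 18 of the 55 genes that passed the filter were higher and 5 lower, where 21.7% and 22% of the genes then tested were. Without TMM the counts were 17 and 8, where 3068 and 13986 of all 28997 genes tested were higher and lower. The median log2 change of all genes was then -0.61. The age of the seed and the way RNA was extracted, by phenol and chloroform from the older seed only, changed together and cannot be told apart.

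Zm00001d032821 had 3.49, 2.98 and 2.65 CPM in DAP35_S and 0 reads in DAP12_S, which is at least 80.0 times higher in CPM, and at least 122 times after TMM, against a floor of 3 reads over the 3 libraries (adjusted p = 1.3e-07 by edgeR). Zm00001d049336 had 3.12, 2.46 and 2.21 CPM in DAP35_S, against 1 read in all 3 libraries of DAP12_S (adjusted p = 6.3e-08). Zm00001d002495 had 0.632, 0.567 and 0.632 CPM in DAP35_S and Zm00001d024178 had 0.520, 0.453 and 0.632 CPM, both with 0 reads in DAP12_S and at least 15.6 and 13.4 times higher in CPM. Zm00001d025873 had 1.86, 1.096 and 1.58 CPM in DAP35_S, against 1 read in DAP12_S. All of these levels are small beside those of the same genes in roots, where Zm00001d049336 had 133, 238 and 249 CPM.

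The 5 genes that were lower in DAP35_S included Zm00001d007700, with 0 reads in DAP35_S, against 0.928 to 1.08 CPM in DAP12_S, and Zm00001d031510, with 0 reads in DAP35_S, against 0.356 to 0.853 CPM in DAP12_S. Zm00001d019497 had 0.446, 0.302 and 0.505 CPM in DAP35_S, against 4.001 to 6.57 CPM in DAP12_S, a log2 change of -3.04 ± 0.53 (SE, adjusted p = 4.2e-05 by edgeR). Zm00001d003707 and Zm00001d051473 were the remaining ones, at log2 changes of -3.39 ± 0.52 and -1.85 ± 0.61 (SE). Of the 53 genes that were not called in seed, 25 had at most 3 reads over the 6 seed libraries, so that a difference was not detectable at this depth.

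In the leaf at the V2 stage, 15 of the 79 genes were higher in V2_LF-I than in V2_LF and 7 were lower, where 34.2% and 31.3% of all genes tested were. Without the root libraries in the fit, 14 of the 55 genes that passed the filter were higher and 6 lower, where 34.8% and 31.5% of the genes then tested were. Without TMM the counts were 24 and 4, where 16508 and 4064 of all 28997 genes tested were higher and lower. The median log2 change of all genes was then 1.09, so the direction of small changes depends on the scaling in this comparison. Of the 57 genes not called, 37 had at most 3 reads over the 6 libraries. Zm00001d003707 had 4.41, 5.29 and 3.11 CPM in V2_LF-I and 0 reads in V2_LF, at least 39.4 times higher after TMM (84.7 times in CPM) against a floor of 3 reads over the 3 libraries (adjusted p = 1.8e-07 by edgeR). Zm00001d045420 had 0.904, 0.739 and 0.794 CPM in V2_LF-I and 0 reads in V2_LF (adjusted p = 2.0e-04). In 1 of the 7 genes called lower the pooled level before scaling was 1.12 times as high in V2_LF-I.

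Zm00001d038598, Zm00001d025873 and Zm00001d026177 also had 0 reads in V2_LF, with 34, 28 and 35 reads over the V2_LF-I libraries, and Zm00001d026177 had the weakest call of the 5 (adjusted p = 0.049 by edgeR). In the other direction, Zm00001d029546 had 0.113, 0.228 and 0.0916 CPM in V2_LF-I, against 1.31 to 1.76 CPM in V2_LF, a log2 change of -4.59 ± 1.03 (SE, adjusted p = 3.3e-04). Zm00001d040684, Zm00001d037008, Zm00001d051473 and Zm00001d019497 were also lower, and the last 2 of these rest on 16 and 14 reads over the 6 libraries. Of these, Zm00001d037008 passed the filter only through its root libraries.

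**Figure D4:**
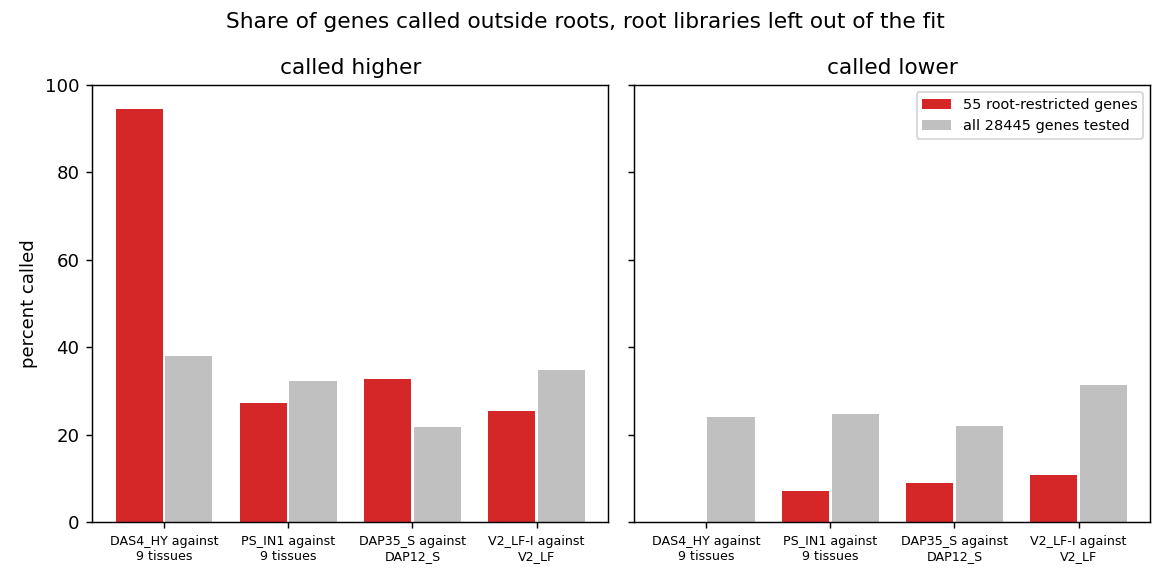
Share of the 55 root-restricted genes that passed the filter without the root libraries (red) and of all 28445 genes then tested (grey) that edgeR called higher (left panel) or lower (right panel) at an adjusted p under 0.05 in 4 comparisons among tissues other than roots. For DAS4_HY called higher the shares are 94.5% and 38.1%, and lower calls against 9 tissues could hardly be made for genes with 0 reads in some tissue. Genes can pass this filter through DAS4_HY alone, so the 94.5% is partly set by the filter.

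Some genes had their highest mean outside roots in a tissue other than the hypocotyl, and these are given by level without a test. Zm00001d046928 had 30.1, 34.1 and 32.4 CPM in roots, against 3.40, 3.38 and 3.60 CPM in DAP12_S, the largest share of a root mean in any other tissue at 10.8%. Zm00001d008173 had 248, 225 and 238 CPM in roots, against 15.8, 27.4 and 11.5 CPM in PS_SILK. Zm00001d052835 had 74.2, 77.2 and 94.4 CPM in roots, against 4.13, 7.91 and 6.41 CPM in PS_EAR. In all 3 genes the hypocotyl was lower than this other tissue by mean but was not empty.

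Zm00001d035888 was also highest outside roots in PS_EAR, with 2.94, 8.39 and 7.54 CPM, and had at most 0.459 CPM in hypocotyls. Zm00001d003865 had 11.3, 13.4 and 6.50 CPM in V2_LF-I, and Zm00001d035028 had 0.904, 1.93 and 1.59 CPM there. In DAS4_HY, Zm00001d003865 had nearly the same mean, with 5.29, 8.94 and 15.25 CPM, and its highest library outside roots was a hypocotyl. Zm00001d018195 had 5.95, 9.65 and 12.4 CPM in PS_TAS. The replicates of a tissue thus differed by up to a few times at these low levels.

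Zm00001d040684 had 2.45, 2.34 and 2.46 CPM in DAP35_S. Zm00001d026162 had 0.514, 0.816 and 3.60 CPM in DAP12_S, so that replicate 3 alone made this its highest tissue outside roots. Zm00001d051473 was the only gene of the 79 whose highest other tissue was PS_LF, with 195, 195 and 190.4 CPM in roots, against 3.84, 2.79 and 2.18 CPM in PS_LF.

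Of the 79 genes, 16 had ID numbers within 5 of another root-restricted gene, in 6 runs. The longest run held 5 genes, Zm00001d004721, Zm00001d004725, Zm00001d004728, Zm00001d004729 and Zm00001d004730. Zm00001d004721 had 138, 251 and 328 CPM in roots and Zm00001d004725 had 27.8, 45.6 and 57.5 CPM. Zm00001d004728 had 65.0, 115 and 138 CPM, and Zm00001d004730 had 66.3, 82.2 and 129.7 CPM. With Zm00001d004729, described above, all 5 genes had their lowest root level in replicate 1 and their highest in replicate 3. Among all 79 genes, 62.0% were lowest in replicate 1 and 54.4% highest in replicate 3. All 5 had their highest level outside roots in DAS4_HY replicate 2, at 0.0755 to 1.38 CPM. For Zm00001d004725 and Zm00001d004729 that level is only 3 and 4 reads.

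The 4 IDs between these genes in the files were not root-restricted. Zm00001d004722 had 0 reads in every library, Zm00001d004727 had 0 reads in roots, and Zm00001d004723 and Zm00001d004726 had at most 0.104 and 0.117 CPM in roots. On either side of the run, Zm00001d004720 had at most 0.0933 CPM in roots and reached 434 CPM in PS_TAS replicate 1, and Zm00001d004731 was read at 94.5, 109.6 and 97.1 CPM in roots but at up to 141 CPM in hypocotyls. The IDs in between and beside the run that are named here thus did not share its pattern. Positions were not looked up, so closeness here is of the numbers alone, and genes of near-identical sequence could share reads that the counting then leaves out.

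**Figure D5:**
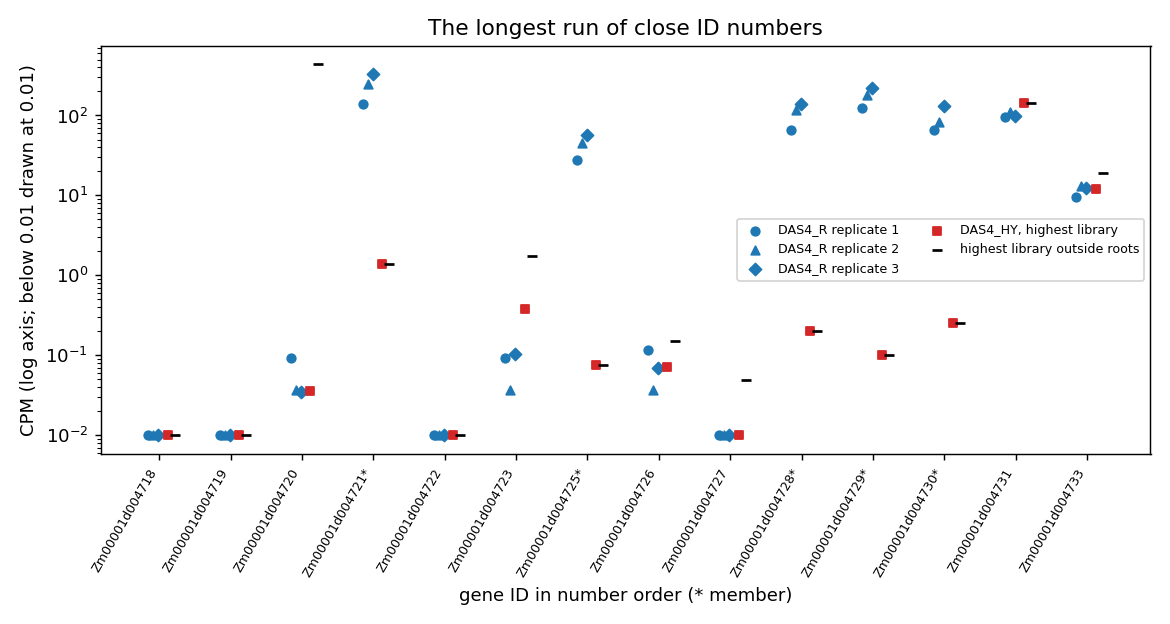
Level of each ID in and beside the longest run of close numbers, in CPM on a log axis, with root replicates in blue, the highest hypocotyl library as red squares and the highest library outside roots as black dashes. Starred IDs are the 5 root-restricted genes, which lie at 27.8 CPM and more in roots and at most 1.38 CPM elsewhere.

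The other runs were shorter. Zm00001d032821, Zm00001d032822 and Zm00001d032823 have consecutive numbers, and Zm00001d032821 had 120, 217 and 200 CPM in roots, with replicate 1 lowest and replicate 2 highest as in Zm00001d032822, while Zm00001d032823 had 29.2, 25.1 and 21.3 CPM and was highest in replicate 1. The first 2 of these shared DAP35_S as their highest tissue outside roots. Zm00001d028887 and Zm00001d028888 shared the rare shape with replicate 1 above 1.5 times both others.

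Zm00001d029274 had 164, 186 and 227 CPM in roots, and Zm00001d029275 beside it was likewise lowest in replicate 1 and highest in replicate 3. Zm00001d026162 had 46.5, 59.8 and 88.3 CPM in roots, and Zm00001d026163 beside it was also highest in replicate 3. Zm00001d007705 had 37.1, 50.9 and 50.5 CPM in roots and followed Zm00001d007700 in having its highest other level in hypocotyls. Near both of these last pairs by number are IDs of a different pattern, Zm00001d026160, which reached 1802 CPM in V2_LF-I, and Zm00001d007707, which reached 1378 CPM in PS_TAS.

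The deposited counts give reads on each strand, so reads opposite to the gene could be set against those on its strand. Over the 3 root libraries, reads on the opposite strand were a median of 0.0750% of those on the strand of the gene in the 79 genes, and 0.0729% in the 9312 other features with as many root reads. They reached 1% in 4 of the 79 genes (5.06%) and in 359 of the other features (3.86%), with the highest value in Zm00001d052387 at 3.08%, a gene chosen after its value was seen. In Zm00001d038363 the count without regard to strand was 7.54% of the reads on both strands, and it was the only gene of the 79 below 95%. The column without strand leaves out reads that fall on a pair of overlapping genes, and under it Zm00001d038363 and Zm00001d040684 no longer met the limits.

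Genes with the most similar pattern to the 3 root-restricted genes of highest level, by Pearson's r of log2(CPM + 1) over the 33 libraries and outside the 79, were much lower. Zm00001d033412 (r = 0.997) and Zm00001d025613 (r = 0.996) were closest to Zm00001d041173, with root means of 9.64 and 8.17 CPM. Zm00001d030232 (r = 0.988) and Zm00001d035108 (r = 0.988) were closest to Zm00001d026163, with root means of 6.24 and 0.932 CPM, and Zm00001d047507 (r = 0.936) and Zm00001d041382 (r = 0.936) to Zm00001d002678, with 4.75 and 13.4 CPM. All 6 lay under the level limit, and an r of this kind is set largely by the contrast of the 3 root libraries with the rest.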

How the data were processed

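RNA was sequenced in 33 libraries, 3 for each of 11 tissues of B73. The authors built TruSeq stranded libraries from polyadenylated RNA and processed the reads with Trimmomatic (trimming), sortMeRNA (ribosomal reads) and STAR (alignment to B73 RefGen_v4). No version of STAR is given in the sources used here. Each deposited file holds raw counts of reads per gene, without strand, forward and reverse, and the reverse counts were used. Lines that name no gene held 10.3% to 20.2% of reads (median 12.1%) and were left out of library sizes and tests. CPM was computed without further scaling, and the tests used TMM.

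Tests used edgeR version 4.0.16 in R version 4.3.3, with low genes removed by filterByExpr (min.count 10, min.total.count 15) and 1 coefficient per tissue, leaving 22 residual degrees of freedom. The fits were tested on simulated data. Libraries were grouped by their labels. Replicates are separate plants or pools of plants, and p-values measure the spread between them. No pair of replicates agreed within sampling noise (chi-square per degree of freedom at least 8.42). Intervals and floors cover counting error only, since the reads carry no molecular identifiers.

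The limits that define root-restricted genes, the comparisons and the lists were chosen with earlier results of these data known. Genes were named by rule: the 10 highest in roots, the 8 largest ratios to other tissues, the 6 most variable root levels, the 5 with the largest hypocotyl share and up to 2 for each other tissue, those next to each limit, the 5 largest changes in each direction of each test, genes with terms in the study's annotation, runs of close IDs, and the 2 most similar genes for each of the 3 highest. The study's annotation is held in part and lists different terms for the same gene in different places, so only terms found in both places are named. The reference table of gene names (assembly NAM-5.0) matched 0 of the 79 IDs. Alternatives were DESeq2 version 1.42.0, no filter, the unstranded counts, the 30 libraries without roots, a replicate block, no TMM, leaving out each library in turn and, added after seeing the data, leaving out the 4 pollen-shed libraries of the earlier harvest day and counting only genes with a read in each non-root tissue.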

Additional observations from a re-analysis of the deposited data

How the results depend on the processing

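The number of root-restricted genes was 121 with a limit of 4 times the highest other library, 128 with a level limit of 10 CPM, 39 with a level limit of 50 CPM and 142 without the 3 DAS4_HY libraries. It was 65 on CPM after TMM, 77 with the unstranded column and 79 on reads thinned to the smallest library, of which 77 were shared. Leaving out 1 root library gave 85 to 118. The share of root reads on the 79 genes kept the same values with the unstranded column to within the spread between replicates.

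In the comparisons outside roots, DESeq2 called 12 genes lower in PS_IN1 (edgeR 4). Without TMM, 8 were lower in DAP35_S than in DAP12_S (with TMM 5), and 24 were higher and 4 lower in V2_LF-I than in V2_LF (with TMM 15 and 7). The numbers over all genes tested under these settings are given with each comparison above. Apart from the fit without PS_IN1 replicate 3, the other settings kept each count within 1.5 times. Over the 33 fits that leave out 1 library, the number higher in DAS4_HY was 70 to 74 and the number lower 0. In PS_IN1 15 to 18 were higher and 2 to 4 lower, with 2 only without PS_IN1 replicate 3. In DAP35_S 19 to 22 were higher and 4 to 6 lower, and in V2_LF-I 11 to 16 were higher and 5 to 7 lower. Of the 29371 to 29514 genes tested in these fits, 10375 to 11540 were higher and 5848 to 7085 lower in DAS4_HY. In PS_IN1 8455 to 9703 were higher and 6318 to 7230 lower. In DAP35_S these ranges were 5121 to 6854 and 5507 to 6887, and in V2_LF-I 9599 to 10266 and 8362 to 9254. 67 of the 74 genes called higher in DAS4_HY were called in all 33 of these fits.

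With a replicate block the counts were 74 and 0 for DAS4_HY, 17 and 4 for PS_IN1, 21 and 5 for seed and 13 and 7 for the V2 leaf. Over all 28997 genes tested, 11219 were then higher and 6931 lower for DAS4_HY, and 9423 and 7065 for PS_IN1. For seed they were 6271 and 6521, and for the V2 leaf 9932 and 9073. In 4 pollen-shed tissues replicate 1 has an earlier harvest day than replicates 2 and 3, so there the number follows the day, and elsewhere no label ties the numbers together. The correlation of the deviations of same-numbered libraries was over 0.1 in 23 of 165 pairs (median 0.0057), and in 10 of the 30 pairs of pollen-shed libraries (median 0.0756), with all 3 pairs over 0.1 for PS_SILK with PS_TAS alone. Without the 4 libraries of the earlier day, an alternative chosen after seeing the data, the counts were 74 and 0 for DAS4_HY, 16 and 3 for PS_IN1, 22 and 5 for seed and 13 and 7 for the V2 leaf. Over the 29308 genes then tested, 11622 were higher and 7090 lower for DAS4_HY, and 9055 and 6400 for PS_IN1. For seed they were 6767 and 7109, and for the V2 leaf 10142 and 9332. Depth limits the seed and leaf comparisons most, since many of the 79 genes had 3 reads or fewer there.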
